A study of Homo sapiens with 6 samples.

Results

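The genes examined here encode the nuclear-encoded subunits of the mitochondrial respiratory chain and ATP synthase. They were taken as the protein-coding genes of the GENCODE v29 annotation (GRCh38) whose symbols begin with NDUF, SDH, UQCR, COX or ATP5, leaving out the assembly factors named NDUFAF and SDHAF and, among the SDH genes, all but SDHA to SDHD. The rule gave 100 genes, against 18768 genes with counts in the series. Of the 100, 95 had a row in the count table and 92 passed the filter on low counts, which kept 13764 genes in all. By the labels, RNA was sequenced from HCT116, a human cell line long established from a colorectal cancer. The cells had received an siRNA against the long non-coding RNA AC010789.1 (si-AC010789.1, 3 replicates) or an siRNA serving as negative control (siRNA-NC, 3 replicates). The labels state no genetic change in either group, both groups were transfected, and no time after transfection is given. AC010789.1 itself had no row among the genes summed here, so its level was not analysed and the labels were not checked against it. The study itself reports that the knockdown was verified in the RNA-seq samples. The labels do not say whether the replicates came from separate cultures, whereas the study's text describes them as biological repeats that may have used cells of different generations.

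The respiratory chain passes electrons from NADH through complex I, and from succinate through complex II, to ubiquinone, then through complex III to cytochrome c and through complex IV to oxygen. Complexes I, III and IV pump protons across the inner mitochondrial membrane, and ATP synthase uses their return to make ATP. Complex II is encoded wholly in the nucleus, whereas the other complexes also hold subunits encoded in mitochondrial DNA, and transcription of many nuclear subunit genes is known to involve the factors NRF1 and GABP. Not every gene the rule takes encodes a subunit: 9 COX genes encode assembly proteins of complex IV, ATP5IF1 encodes an inhibitor of ATP synthase, ATP5S encodes a coupling factor, ATP5MGL is a copy of a subunit gene, and ATP5MF-PTCD1 and NDUFC2-KCTD14 are readthrough genes that join a subunit gene to its neighbour. NDUFA4 is placed with complex IV, of which it is a subunit. CYC1, a subunit of complex III, lies outside the rule.

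The libraries held 11277222 to 13443866 counts each, and the respiratory chain genes took 0.628% to 0.666% of them. A level of 3 counts corresponded to 0.223 to 0.266 CPM (counts scaled to library size), for counting error only. In the check of the cell label, 10 of 18 markers of colorectal epithelium had any counts. KRT8 had 5558 to 11278 counts in a library, KRT18 4395 to 6129, ELF3 744 to 1184, CLDN7 217 to 331 and EPCAM 35 to 68. CLDN4 had 290 to 331 counts in 4 libraries, but only 4 in replicate 2 of si-AC010789.1 and 22 in its replicate 3. CDH1 had 8 to 13, CDH17, CLDN3 and LGR5 had at most 4, and KRT19, KRT20, CDX1, CDX2, VIL1, GPA33, ESRP1 and CEACAM5 had none in the table used here. Of 8 mesenchymal markers 7 had counts, with VIM at 7543 to 12190, CDH2 at 556 to 854, COL1A1 at 426 to 616, FN1 at 312 to 492, TWIST1 at 65 to 100, COL3A1 at 22 to 45 and SPARC at 0 to 3, and COL1A2 had none. The epithelial markers were thus mixed. Keratins 8 and 18, ELF3 and CLDN7 had counts in every library, EPCAM was low, and CLDN4 was low in si-AC010789.1 replicates 2 and 3. CDH1, CDH17, CLDN3 and LGR5 were near 0. KRT19, KRT20, ESRP1, CEACAM5 and the intestinal markers CDX1, CDX2, VIL1 and GPA33 had no counts, whereas VIM, CDH2 and COL1A1 were well counted. These values go against the label in part. The identity of the cells was not tested further. Only 6 of the 18 epithelial and 6 of the 8 mesenchymal markers passed the filter and were tested. Summed over these, the epithelial list lay at 1121 to 1350 CPM in siRNA-NC and 887 to 1158 CPM in si-AC010789.1. The mesenchymal list lay at 909 to 1066 CPM and 803 to 981 CPM. By the counts above, KRT8 and KRT18 made up most of the epithelial sum and VIM most of the mesenchymal one. The blood markers PTPRC, CD3E and HBB and the endothelial marker PECAM1 had no counts, and CDH5 had 10 to 29. Any part of these markers in the results below was not tested, and in bulk RNA a change in the cells present and a change in RNA per cell cannot be told apart.

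The level of the respiratory chain genes as a whole was close in the 2 groups. Their summed level was 6652, 6562 and 6326 CPM in siRNA-NC replicates 1, 2 and 3, and 6533, 6543 and 6433 CPM in si-AC010789.1 replicates 1, 2 and 3. The means were 6513 ± 169 and 6503 ± 60.7 CPM (SD, n = 3 each), a difference of -0.161% that lay well inside the spread of the libraries. None of the 92 genes passed an adjusted p of 0.05 in edgeR's quasi-likelihood test, against 130 of the 13764 genes tested (0.944%). The smallest adjusted p among them, 0.0833, was that of NDUFC2-KCTD14, which passed the filter through the si-AC010789.1 libraries alone. The next was 0.104, for ATP5F1B. At an unadjusted p under 0.05 there were 9 of 92 (9.78%), NDUFC2-KCTD14 among them, against 17.2% of all genes. With DESeq2, 1 of the 88 members that received an adjusted p passed, ATP5F1B, against 5.04% of the genes.

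Fitted levels were higher in si-AC010789.1 for 52 members and lower for 40, that is 56.5% higher, against 49.9% of all genes. The median log2 fold change was 0.0346 over the members and -0.000593 over all genes. The fits were also tighter than usual: the median standard error was 0.0992 on the log2 scale, against 0.123 for all genes, and the members' median level was 54.7 CPM, against 27.5 CPM. For 65 of the 92 members (70.7%) the 95% interval of the fold change lay wholly within 0.5 on the log2 scale of no difference, which is 1.41-fold, against 53.9% of all genes. For the others these data leave room for a larger difference in at least one direction. The 3 libraries of each group lay apart, with si-AC010789.1 higher, for 8 members (8.70%, against 12.2% of all genes), and with si-AC010789.1 lower for 4 (4.35%, against 12.9%).

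**Figure D1:**
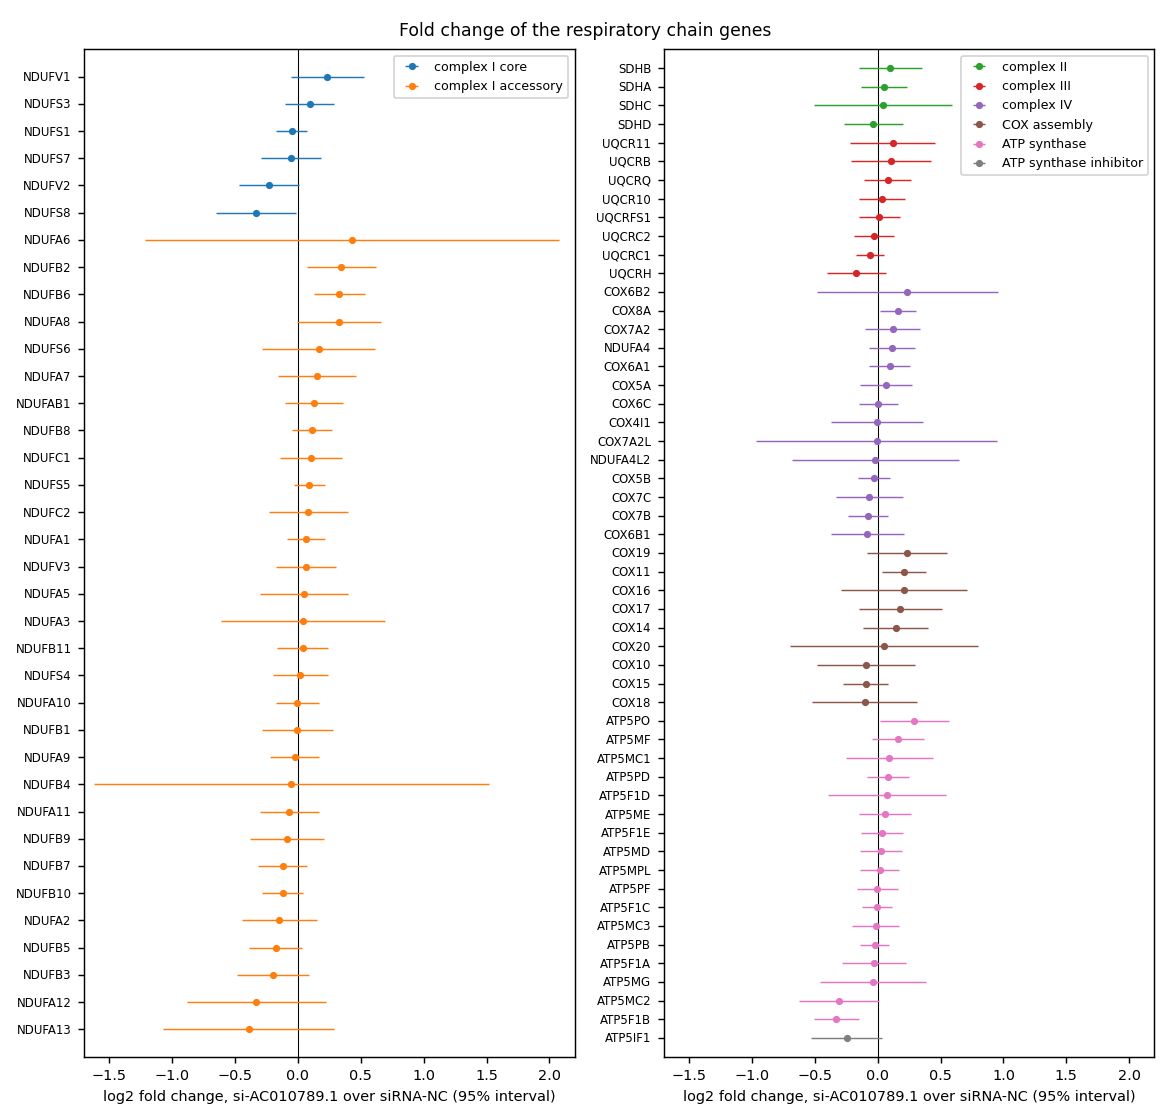
Fitted log2 fold change of si-AC010789.1 over siRNA-NC for the members placed in a complex (points), with its 95% interval (bars), coloured by complex; x axis on the log2 scale, one gene per line. Most intervals cross 0, ATP5F1B at -0.33 is among the few that do not, and the intervals of NDUFA6 and NDUFB4 are the widest.

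Complex I is the largest group, with 37 genes that all passed the filter. Its summed level was 1870, 1887 and 1791 CPM in siRNA-NC and 1907, 1887 and 1863 CPM in si-AC010789.1, or 1849 ± 51.0 and 1886 ± 21.8 CPM (SD, n = 3 each). The groups overlapped. Among the members, 20 were fitted higher and 17 lower (median log2 fold change 0.0399). The 7 core subunits, which carry the flavin and iron-sulfur clusters, split into 3 higher and 4 lower (median -0.0504), and the 30 accessory subunits into 17 higher and 13 lower (median 0.0403).

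Among the core subunits, NDUFS8, which holds iron-sulfur clusters, had 43.9, 38.2 and 31.0 CPM in siRNA-NC and 30.5, 28.6 and 30.4 CPM in si-AC010789.1. All 3 si-AC010789.1 libraries were below the control libraries, but siRNA-NC replicate 3 came close to them. The log2 fold change was -0.34 ± 0.13 (SE), with an edgeR adjusted p of 0.269. NDUFV2, a subunit of the NADH-oxidising module, had 101, 103 and 93.9 CPM against 72.9, 93.1 and 88.3 CPM. Its groups were narrowly apart, with si-AC010789.1 replicate 1 lowest, at a log2 fold change of -0.23 ± 0.10 and an edgeR adjusted p of 0.315. With 3 of the 7 fitted higher and 4 lower, the core subunits shared no direction.

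Among the accessory subunits, the membrane-arm genes NDUFB2 and NDUFB6 had the largest positive values with separate groups. NDUFB6 had 12.8, 11.99 and 12.8 CPM in siRNA-NC and 15.6, 15.7 and 15.8 CPM in si-AC010789.1. The si-AC010789.1 libraries lay close together and above all controls, with a log2 fold change of 0.33 ± 0.08, an unadjusted p of 0.00687 and an adjusted p of 0.133 in edgeR's fit. NDUFB2 had 11.5, 12.2 and 11.5 CPM against 14.9, 13.2 and 16.6 CPM, a log2 fold change of 0.34 ± 0.12 with an edgeR adjusted p of 0.213. NDUFB8 was the third accessory subunit with separate groups in this direction, at a log2 fold change of 0.11 ± 0.07 and an edgeR adjusted p of 0.445. NDUFB5, another membrane-arm subunit, had 23.0, 22.2 and 20.1 CPM against 18.7, 18.9 and 20.1 CPM, and its highest si-AC010789.1 library lay just under the lowest control. Its log2 fold change was -0.18 ± 0.09, with an edgeR adjusted p of 0.359.

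Complex II, succinate dehydrogenase, oxidises succinate in the citrate cycle. Its 4 genes summed to 716, 695 and 659 CPM in siRNA-NC and 748, 702 and 697 CPM in si-AC010789.1, which overlapped. SDHA, the flavoprotein, had 508, 496 and 505 CPM against 583, 490 and 489 CPM, so that only si-AC010789.1 replicate 1 stood above the rest. Its log2 fold change was 0.05 ± 0.08, with an edgeR adjusted p of 0.788. SDHB, the iron-sulfur subunit, had 91.8, 79.0 and 69.9 CPM against 82.0, 87.2 and 88.8 CPM, with a log2 fold change of 0.10 ± 0.10. SDHC, a membrane anchor, had 103, 107 and 69.5 CPM against 69.5, 112 and 106 CPM. In each group 1 library of SDHC was low and the other two were high, and its log2 interval ran from -0.51 to 0.59. SDHD, the other anchor, lay between 12.7 and 14.6 CPM in all 6 libraries, with a log2 fold change of -0.03 ± 0.10.

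Complex III, which transfers electrons from ubiquinol to cytochrome c, had 8 of its 9 genes tested, 5 higher and 3 lower, with log2 fold changes from -0.17 to 0.12. All 8 intervals lay within 0.5 of no difference. The sum was 952, 925 and 850 CPM in siRNA-NC and 929, 881 and 865 CPM in si-AC010789.1. UQCRH, the hinge subunit, had the lowest value, with 210, 171 and 178 CPM against 183, 157 and 157 CPM. Its groups overlapped, and the log2 fold change of -0.17 ± 0.10 had an edgeR adjusted p of 0.431. UQCRFS1, the Rieske iron-sulfur protein, differed by 0.01 ± 0.07 on the log2 scale. UQCRHL, a near copy of UQCRH, was under the filter, with 4, 4 and 5 counts in siRNA-NC against 3, 4 and 13 counts in si-AC010789.1.

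Complex IV, cytochrome c oxidase, had 14 of its 19 genes tested, with 7 higher and 7 lower and a median log2 fold change of 0.000219. Its sum was 955, 926 and 931 CPM against 915, 969 and 958 CPM. COX8A, a small structural subunit, was the member with separate groups, at 66.8, 66.7 and 68.3 CPM in siRNA-NC and 78.9, 72.0 and 74.9 CPM in si-AC010789.1. Its log2 fold change was 0.16 ± 0.06, with an edgeR adjusted p of 0.241. COX4I1, the ubiquitous form of subunit 4, had 121, 138 and 99.5 CPM against 99.0, 130 and 129 CPM, and a log2 fold change near 0 with an interval from -0.37 to 0.36.

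The 5 genes with no row in the table were all complex IV genes: COX4I2, COX6A2, COX7A1, COX7B2 and COX8C. These are known for expression restricted to tissues such as lung, heart and skeletal muscle or testis, and each has a paralog that was counted. The other paralogs could be set side by side per transcript length, as TPM (counts scaled to transcript length and library size, mean of all 6 libraries). COX6B1 was at 172 TPM, whereas COX6B2, its testis paralog, was at 4.27 TPM. NDUFA4 was at 71.9 TPM and NDUFA4L2, a paralog induced by low oxygen, at 8.26 TPM. COX7A2 was at 202 TPM and the related COX7A2L at 91.3 TPM, with a spread in COX7A2L described further on. In the comparison of the groups, NDUFA4 (0.11 ± 0.08), COX6A1 (0.09 ± 0.07), COX7A2 (0.12 ± 0.09), COX6B1 (-0.08 ± 0.12), COX6B2 (0.24 ± 0.30) and NDUFA4L2 (-0.02 ± 0.28) all had log2 fold changes whose intervals crossed 0.

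The 9 assembly proteins of complex IV, which handle its haem, copper and subunit insertion, were fitted higher in 6 and lower in 3, with a median log2 fold change of 0.143. Their sum was 279, 260 and 286 CPM in siRNA-NC and 301, 306 and 247 CPM in si-AC010789.1, so that si-AC010789.1 replicate 3 held the lowest value of all and replicate 2 the highest. COX11, which delivers copper, had 23.5, 22.5 and 24.3 CPM against 26.7, 27.2 and 27.5 CPM. Its groups were apart, with a log2 fold change of 0.21 ± 0.07 and an edgeR adjusted p of 0.222. COX17, a copper chaperone, had a log2 fold change of 0.18 ± 0.14 and COX18, an insertion factor, one of -0.10 ± 0.17, with overlapping groups in both.

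ATP synthase showed the lowest sum relative to control. Its 17 genes summed to 1734, 1726 and 1677 CPM in siRNA-NC and 1628, 1655 and 1672 CPM in si-AC010789.1, or 1713 ± 30.7 and 1651 ± 22.3 CPM (SD, n = 3 each), a difference of -3.56%. The highest si-AC010789.1 library lay just under the lowest control. ATP5F1B held this difference. Without it, the remaining genes summed to 1376 ± 37.0 and 1383 ± 32.5 CPM, with overlapping groups, a split made after the values were seen. By count, 9 of the 17 genes were higher and 8 lower, with a median log2 fold change of 0.0157.

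**Figure D2:**
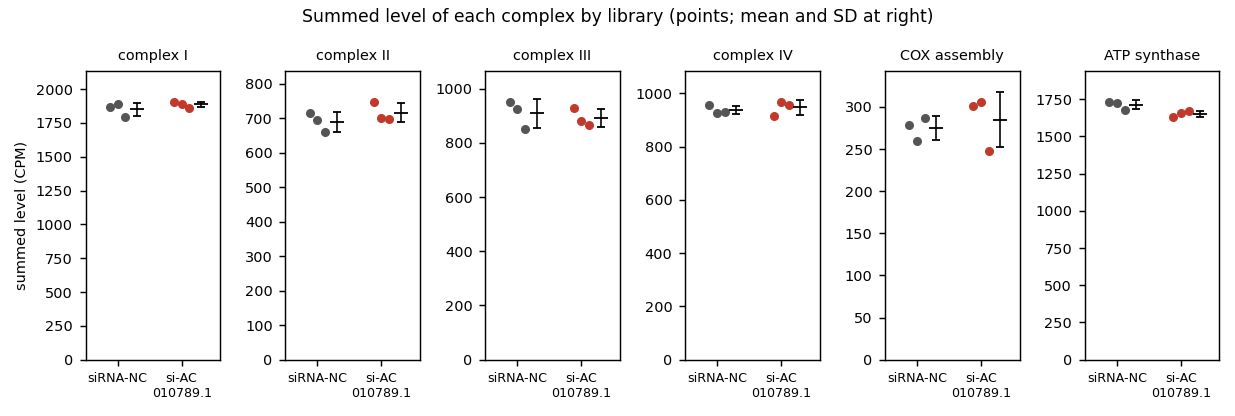
Summed CPM of the genes of each complex in each library (points; grey siRNA-NC, red si-AC010789.1), with the group mean and SD at the right of the points; each y axis starts at 0. The groups overlap in every panel except ATP synthase, where the means are 1713 and 1651 CPM.

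ATP5F1B (ENSG00000110955, chr12:56638175-56646068, minus strand) encodes the catalytic beta subunit of the F1 part. It had 367, 310 and 334 CPM in siRNA-NC and 282, 254 and 268 CPM in si-AC010789.1. All 3 si-AC010789.1 libraries lay below all 3 controls, and the means of 337 ± 28.6 and 268 ± 13.9 CPM (SD, n = 3 each) differ by -20.4%. The log2 fold change was -0.33 ± 0.07 (SE), with a 95% interval from -0.51 to -0.15. The unadjusted p was 0.00346 and the adjusted p 0.104 in edgeR's fit, whereas DESeq2 gave an adjusted p of 0.0190. The call thus depends on the tool. Its main transcript, ENST00000262030, had 3783, 3348 and 3255 counts in siRNA-NC against 2501, 2515 and 2763 counts in si-AC010789.1, with the groups apart as in the gene sum.

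The partner subunit of the same catalytic ring, ATP5F1A, differed by -0.03 ± 0.11 on the log2 scale, and the central stalk subunit ATP5F1C by -0.005 ± 0.05. ATP5PO, which links the F1 part to the stator, lay the other way, with 57.1, 59.9 and 47.1 CPM in siRNA-NC and 74.3, 62.6 and 64.0 CPM in si-AC010789.1. Its groups were apart, at a log2 fold change of 0.29 ± 0.12 and an edgeR adjusted p of 0.269. The 3 genes ATP5MC1, ATP5MC2 and ATP5MC3 encode the same c subunit of the rotor with different leader peptides. ATP5MC2 had 98.9, 127 and 110 CPM in siRNA-NC and 80.8, 84.8 and 106 CPM in si-AC010789.1, with si-AC010789.1 replicate 3 inside the control range, a log2 fold change of -0.31 ± 0.13 and an edgeR adjusted p of 0.302. ATP5MC1 was at 0.09 ± 0.15 and ATP5MC3 at -0.02 ± 0.08 on the log2 scale. ATP5IF1, the inhibitor that binds the F1 part when the proton gradient is lost, had 139, 140 and 126 CPM against 93.9, 128 and 119 CPM, which overlapped by a single library, with a log2 fold change of -0.25 ± 0.12 and an edgeR adjusted p of 0.350.

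**Figure D3:**
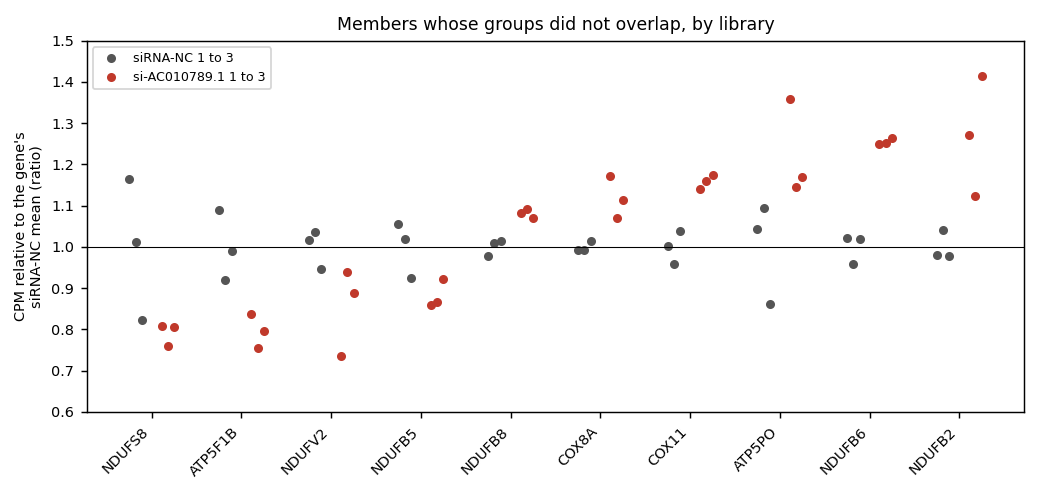
CPM of each library divided by the gene's siRNA-NC mean, for 10 members placed in a complex whose groups did not overlap (grey siRNA-NC, red si-AC010789.1; genes in order of fitted fold change). All 4 genes at the left lie below their control mean in every si-AC010789.1 library and the 6 at the right above it, and in NDUFS8, NDUFV2 and NDUFB5 single libraries of the groups come close to each other.

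The study called genes at an unadjusted p under 0.05 with an absolute log2 fold change over 1. These criteria were applied here to edgeR's p, whereas the study used Cuffdiff. The study also describes leaving out genes that differed significantly within a group, which was not done here. A single member was called, NDUFC2-KCTD14, against 107 of all genes (0.777%). This readthrough gene (ENSG00000259112, chr11:78016971-78079865, minus strand) had 0 counts in all 3 siRNA-NC libraries and 58, 17 and 36 counts in si-AC010789.1. Set against 3 counts in each siRNA-NC library, its mean of 3.11 ± 1.86 CPM (SD, n = 3) was 13.1-fold higher. This is a ratio to an assumed level and not a lower limit, as the si-AC010789.1 libraries ran from 1.36 to 5.07 CPM. The edgeR adjusted p was 0.0833. It passed the filter through the si-AC010789.1 libraries alone, so that a difference was bound to be seen. All its counts fell on 1 transcript, ENST00000530054, that shares exons with NDUFC2 and KCTD14, and how shared reads were divided is not given in the sources used here. NDUFC2 itself had 84.9, 90.9 and 72.6 CPM in siRNA-NC and 95.8, 73.0 and 93.8 CPM in si-AC010789.1. The other readthrough gene, ATP5MF-PTCD1, was under the filter with 0, 0 and 2 counts in siRNA-NC against 34, 51 and 1 counts in si-AC010789.1, so that si-AC010789.1 replicate 3 was like the controls. ATP5MGL had at most 2 counts in a library.

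Levels of different genes were compared per transcript length. The highest was NDUFS5, an accessory subunit of complex I, at 634, 608 and 650 TPM in siRNA-NC and 644, 695 and 681 TPM in si-AC010789.1. ATP5MF, a membrane subunit of ATP synthase, followed with 551, 555 and 674 TPM and 693, 650 and 671 TPM. The ranges of these neighbours overlapped, so their order is within the spread. UQCRH (556 TPM, mean of 6 libraries), SDHA (495 TPM) and COX5B (451 TPM) led their complexes. In the order of all members, the range of each overlapped that of the next gene. Within its own complex each lay above the next gene in all libraries: UQCRC1 (269 TPM), SDHB (157 TPM) and COX4I1 (309 TPM). The lowest tested subunits were COX6B2 at 4.27 TPM in complex IV, NDUFV3 at 22.4 TPM among the accessory subunits of complex I, SDHC at 31.8 TPM, NDUFS7 at 32.9 TPM in the core of complex I, UQCRFS1 at 34.5 TPM and ATP5MC3 at 53.8 TPM.

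The subunits of a complex were thus not at equal RNA levels. Within complex II, whose subunits assemble in equal numbers, SDHA was 15.6 times SDHC. In the core of complex I the highest gene, NDUFV2 at 203 TPM, was 6.15 times the lowest, and in ATP synthase the span was 11.8 times. The assembly proteins of complex IV had a median of 40.2 TPM, from 5.71 TPM for COX18 to 66.8 TPM for COX17, below the medians of 164 TPM for the subunits of complex IV and 140 TPM for those of ATP synthase. These levels rest on the division of counts among transcripts of different length: NDUFC2 ranged from 66.2 to 233 TPM among libraries in which its CPM, given above, ranged far less.

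**Figure D4:**
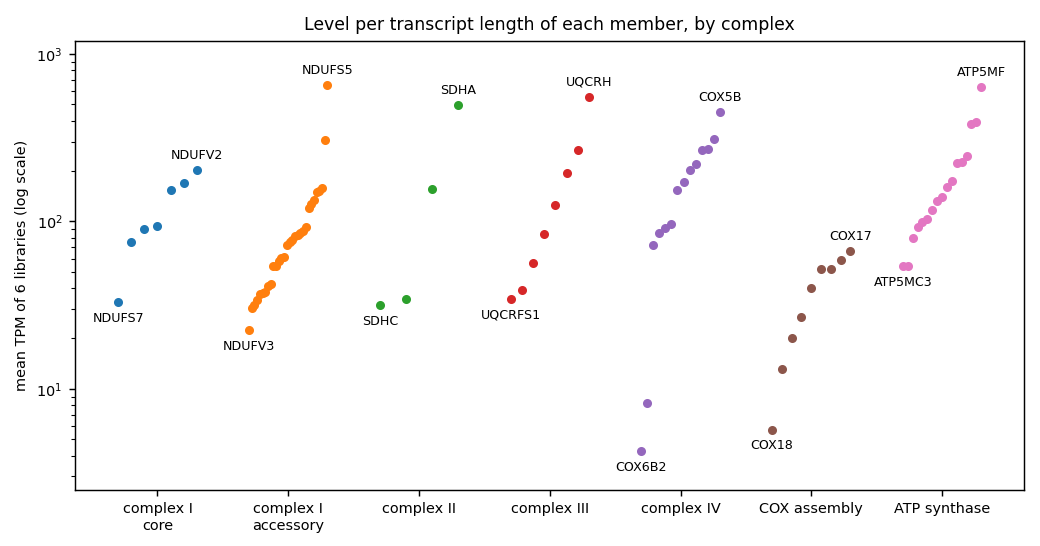
Mean TPM of the 6 libraries for each tested member of a complex (points, in order of level within the complex; log scale). Labels mark the highest and the lowest member of each group, from NDUFS5 at 652 TPM to COX6B2 at 4.27 TPM.

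A few members varied widely between replicates. In 15 of 92 members (16.3%, against 29.5% of all genes) the highest library of a group was over 1.5 times the lowest. NDUFA6, an accessory subunit of complex I, had 47, 613 and 418 counts in siRNA-NC against 377, 485 and 482 counts in si-AC010789.1, so that siRNA-NC replicate 1 stood apart. NDUFB4, a membrane-arm subunit, had 274, 922 and 339 counts and 849, 303 and 209 counts, with 1 high library in each group. COX7A2L, which takes part in joining complexes III and IV into supercomplexes, had 1236, 619 and 717 counts and 647, 1269 and 622 counts, again with 1 high library in each group. Their log2 fold changes of 0.43 ± 0.69, -0.05 ± 0.65 and -0.01 ± 0.40 therefore carry wide intervals, and these genes are not shown to be alike in the 2 groups.

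The spread was seen in single transcripts. NDUFA6 had most counts on the transcript ENST00000617763 in siRNA-NC replicate 2 (598 of 613) and on ENST00000498737 in replicate 3 (338 of 418). The NDUFB4 transcript ENST00000184266 had 22, 760 and 14 counts in siRNA-NC against 273, 142 and 63 counts in si-AC010789.1. In SDHA, whose gene sums were near each other, a transcript annotated as a retained intron, ENST00000514027, had 2923 counts in si-AC010789.1 replicate 1, 43.8% of the gene, and 179 to 343 counts in the other 5 libraries. In that library the main transcript ENST00000504309 had 2646 counts, against 3615 to 4123 in the others, and this was the library that stood above the rest for SDHA.

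Over all members with at least 2 counted transcripts, 57 of 87 (65.5%) had the same leading transcript in all 6 libraries, against 52.7% of all such genes. Protein-coding transcripts took 81.4% to 85.2% of the members' counts in a library, against 83.2% to 83.9% over all genes tested. The members' protein-coding share was above that of all genes in siRNA-NC replicate 1 and si-AC010789.1 replicates 2 and 3, and below it in the others. Retained introns took 6.91% to 10.6% of the members' counts, against 5.86% to 6.30% over all genes. The 10.6% was that of si-AC010789.1 replicate 1, the library with many counts on the SDHA retained intron. The other libraries lay at 6.91% to 8.56%. Transcripts annotated to nonsense-mediated decay took 3.65% to 5.34% against 3.16% to 3.36%, and processed transcripts 3.16% to 4.50% against 2.37% to 2.52%. Each of these types took a larger share in the members in every library. The members are all protein-coding genes, whereas the genes tested also include other gene types, so the shares are not fully alike in kind. Of 383 member transcripts tested singly with edgeR, 0 passed an adjusted p of 0.05, against 6 of 44297 over all genes (0.0135%). The smallest adjusted p was 0.379, for NDUFC2-KCTD14, whose counts lay in the si-AC010789.1 libraries alone. NDUFS4, an accessory subunit of complex I, shows how a transcript and its gene can differ. Its transcript ENST00000296684 had 11, 33 and 5 counts in siRNA-NC against 192, 46 and 141 counts in si-AC010789.1, which do not overlap, with a log2 fold change of 3.03 ± 0.91 and an edgeR adjusted p of 0.748. The gene sum of NDUFS4 was at a log2 fold change of 0.02 ± 0.09.

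Respiratory chain genes have many copies in the genome that are annotated as pseudogenes. Those with counts are annotated as processed, except SDHAP1, SDHAP2 and SDHAP3, which are annotated as unprocessed. The annotation holds 164 pseudogenes named after 49 of the members, of which 21, for 19 members, had counts. COX6A1P2 had 497 to 683 counts in a library, UQCRFS1P1 156 to 202, SDHAP1 265 to 363 and NDUFV2P1 125 to 164, and most of the others had under 20. None of these 4 passed an adjusted p of 0.05 in edgeR's fit. Reads could be split between such a copy and its parent gene, so the levels of COX6A1, UQCRFS1, SDHA and NDUFV2 are uncertain to that extent. Exons of 39 members overlap an exon of another gene on the other strand and those of 32 on the same strand, and whether counting used the strand is not given in the sources used here.

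A feature that the rule did not use is the sequence before the start of these genes. RefSeq promoters (GRCh38.p14, 250 bases before to 50 after the first listed start) were matched for 77 of the 100 genes and searched on both strands for exact short words, none of which contains another. The word CGCATGCG, the core bound by NRF1, which reads the same on both strands, was present in 12 of 77 promoters (15.6%), against 3.99% of 9873 promoters of genes tested here and 2.19% of all 27305. The YY1 word AAGATGGC was present in 12 (15.6%, against 5.53% and 3.03%), and the ETS word CCGGAAG, of the family of GABP, in 22 (28.6%, against 19.6% and 10.7%). ACTACAA, part of the ZNF143 site, was in 5 (6.49%, against 3.91% and 2.95%), and the GC box GGGCGG in 46 (59.7%, against 70.9% and 44.6%). These are matches of letters, given as a description, and binding was not measured.

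The 12 promoters with the NRF1 core are shown because the word lies in a different flank in each and at different distances from the start, from 215 bases before it in COX6A1 to the start itself in NDUFA8. Each 30-base window is written 5′ to 3′ on the strand of the gene, with the matched core in capitals.
ATP5F1C (chr10:7788145-7788174, plus strand): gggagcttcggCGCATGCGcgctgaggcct
ATP5MC2 (chr12:53676106-53676135, minus strand): ggcccgggtcaCGCATGCGctgagccttcc
ATP5ME (chr4:674335-674364, minus strand): gccgctgacggCGCATGCGtgcgcccagct
ATP5PF (chr21:25735155-25735184, minus strand): cactcaaagagCGCATGCGtacagagcaag
COX17 (chr3:119677503-119677532, minus strand): gggcctccttgCGCATGCGctgaagggggc
COX18 (chr4:73069744-73069773, minus strand): gcaggcaggcgCGCATGCGctttatgcccg
COX6A1 (chr12:120437883-120437912, plus strand): cggagggcacaCGCATGCGcacgaaggaaa
NDUFA8 (chr9:122159764-122159793, minus strand): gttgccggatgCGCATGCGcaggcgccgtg
NDUFB4 (chr3:120596167-120596196, plus strand): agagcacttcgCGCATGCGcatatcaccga
NDUFS6 (chr5:1801351-1801380, plus strand): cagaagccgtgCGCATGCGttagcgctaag
NDUFS7 (chr19:1383822-1383851, plus strand): gttccggtttcCGCATGCGctccgagccgc
SDHD (chr11:112086753-112086782, plus strand): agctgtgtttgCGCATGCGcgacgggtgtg

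These genes span complexes I, II and IV, ATP synthase and the assembly proteins. In si-AC010789.1, 5 of the 12 were fitted higher, at a median log2 difference of -0.00419, and of the 62 tested genes with a promoter that lacked the word 34 were higher (median 0.0346). In contrast to the NRF1 core, the YY1 word lay in the first bases after the start in most of its promoters, as in SDHB and NDUFA9, whose windows are shown with the word in capitals.
SDHB (chr1:17054004-17054033, minus strand): cgtcaggagccAAGATGGCggcggtggtcg
NDUFA9 (chr12:4649113-4649142, plus strand): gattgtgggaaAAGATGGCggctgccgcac

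The other genes of the pathway did not pass the test either. None of the 13 subunits encoded in mitochondrial DNA passed an adjusted p of 0.05 in edgeR's fit, with 10 higher and 3 lower, and their sum lay between 66802 and 77156 CPM in siRNA-NC and between 71158 and 72988 CPM in si-AC010789.1. Of the 41 assembly factors outside the rule, 26 were higher and 15 lower, and 0 were called, against the 0.944% of all genes. Of the 41, 7 (17.1%) had an unadjusted p under 0.05, against 17.2% of all genes. The groups lay apart for 8 with si-AC010789.1 higher (19.5%, against 12.2%) and for 2 with it lower (4.88%, against 12.9%). Their sum did not overlap between the groups, at 1482 to 1507 CPM in siRNA-NC and 1535 to 1563 CPM in si-AC010789.1. CYC1 (-0.02 ± 0.13) and CYCS, which encodes cytochrome c (-0.004 ± 0.106), were near 0 on the log2 scale. Of 13 regulators of nuclear respiratory genes 6 were higher and 7 lower with 0 called. Among them NRF1 was at -0.15 ± 0.09, and PPARGC1A, the coactivator PGC-1α, at -0.28 ± 0.12 with an edgeR adjusted p of 0.320. PPARGC1B lay the other way at 0.34 ± 0.21, as did GABPB1 at 0.25 ± 0.10 with an edgeR adjusted p of 0.261. GABPB1 was the 1 regulator with an unadjusted p under 0.05 in edgeR's fit (7.69%, against 17.2% of all genes). The sum of these regulators overlapped, at 756 to 794 CPM and 781 to 899 CPM. Of 14 citrate cycle genes 9 were higher and 5 lower, with 0 called and 2 at an unadjusted p under 0.05 in edgeR's fit (14.3%, against 17.2% of all genes). Their sum was 1601 to 1806 CPM in siRNA-NC and 1816 to 1888 CPM in si-AC010789.1, which did not overlap but lay close. CS, a gene of this list, had 1096 counts in siRNA-NC replicate 2 and 3434 to 3924 counts in every other library. These sums are given without a test.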

How the data were processed

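The authors deposited whole-number counts per Ensembl transcript and library, without normalization. The submitters' processing notes name CASAVA 1.8, TopHat2 2.0.6, mm10 and GRCh38 with no role; the counting program is not given in the sources used here. The study names Cuffdiff, which needs alignments and was not run. Gene sums were formed with the GENCODE v29 annotation of GRCh38, which matched 98803 of 98886 transcripts. Genes were tested with edgeR 4.0.16 in R 4.3.3 (TMM, factors 0.9935 to 1.0073; filterByExpr at its defaults, min.count 10 and min.total.count 15; glmQLFTest; Benjamini-Hochberg adjustment over all 13764 genes), si-AC010789.1 against siRNA-NC, without a block. Intervals are 95%. CPM used TMM-scaled library sizes, and TPM used annotated transcript lengths. The alternatives were DESeq2 1.42.0, RLE factors, library totals, no filter, a mean of 1 CPM, the replicate number as a block, protein-coding transcripts only, and leaving out each library. Members and lists were chosen with earlier results of these data known. The text names members with an adjusted p under 0.05 in edgeR or DESeq2, the 5 largest differences in each direction with separate groups, the highest and lowest per length in each complex, paralogs, the SDH genes, and the 3 largest spreads; other genes were named after their values were seen. On simulated data with 13619 genes, changes of 1 and 2 on the log2 scale were called in 59.4% and 94% of cases, with 14 unchanged genes among 165 calls. Smaller changes, such as those of most members (median absolute log2 fold change 0.091), were not simulated. Python 3.11.15, pandas 2.3.3, numpy 2.4.6 and matplotlib 3.10.9 were used. The values of 1 complex I gene and of some genes outside the respiratory chain are not reported here.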

Additional observations from a re-analysis of the deposited data

How the results depend on the processing

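No respiratory chain gene was called higher under any alternative. NDUFC2-KCTD14 received no adjusted p with DESeq2, so it could not be called there. With DESeq2 in place of edgeR, 1 gene was called lower, ATP5F1B (log2 fold change -0.326, adjusted p 0.0190), and 519 genes were called in all, against 130. Over all genes, 69 were called without the filter, 56 with protein-coding transcripts only, 0 with the replicate number as a block, and 12 to 37 without single libraries. Deviations of same-numbered libraries were weakly correlated (0.112, 0.0108 and 0.0167), against -0.0895 to 0.0792 for libraries of different number. With 3 libraries in a group, this does not settle whether the numbers pair the samples. Under the study's criteria, 2 members were called without the filter and with a mean of 1 CPM (NDUFC2-KCTD14 and ATP5MF-PTCD1), 2 with protein-coding transcripts only (NDUFC2-KCTD14 and NDUFS4), and 1 to 2 without single libraries. Members with separate groups numbered 19 to 24 without single libraries, against 12, since fewer libraries have to lie apart. The members' median moved to 0.0543 with protein-coding transcripts only and spanned 0.0145 to 0.0415 without single libraries. With protein-coding transcripts only, the log2 ratio of the sum was -0.0458 for complex II (0.0526 with all transcripts) and -0.0196 for ATP synthase (-0.0524); the cause was not tested.

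Signs near 0 were not stable. With protein-coding transcripts only, the log2 fold change was -0.0876 for SDHA, 0.114 for ATP5MC3 and 0.077 for COX7A2L. It was 0.00272 for COX4I1 with library totals, and with the block 0.019 for COX7A2L and 0.0116 for NDUFA4L2. Without single libraries it spanned -0.135 to 0.0106 for NDUFS7, -0.0114 to 0.126 for NDUFV3, -0.0407 to 0.0947 for SDHA, -0.135 to 0.226 for SDHC, -0.0281 to 0.0478 for UQCRFS1, -0.0596 to 0.00911 for COX5B, -0.0673 to 0.0401 for ATP5MC3, -0.122 to 0.114 for COX4I1, -0.197 to 0.0013 for COX6B1, -0.385 to 0.468 for COX7A2L, -0.205 to 0.276 for NDUFA4L2, -0.0722 to 0.209 for ATP5MC1, -0.086 to 0.0145 for SDHD, -0.0701 to 1.04 for NDUFA6 and -0.952 to 0.624 for NDUFB4. Of the 37 members recomputed, the others kept their sign under the alternatives that gave them a value, ATP5F1B between -0.386 and -0.261 without single libraries. Other members named in the text were not recomputed one by one.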
